A study of Mus musculus with 16 samples.

Results

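The loci of 9 genes that are lost in mesothelioma or that carry the Hippo pathway were followed in maps of DNA break ends from AB22 cells, a mouse malignant mesothelioma line. The 9 genes were Bap1, Nf2, Lats1, Lats2, Trp53, Setd2, Yap1, Wwtr1 and Tead1, out of 32052 protein-coding and long noncoding genes annotated on the main chromosomes. They were chosen by name, with earlier results of these data known. Each was examined as the gene body with 200 kb on both sides, called its locus here, to see whether the locus is retained. One line carried a doxycycline-induced hairpin against the chromatin protein HMGB1 (shHMGB1), and the other a control hairpin in the same pTRIPZ vector (shCTRL). Both lines were infected, selected with puromycin, given doxycycline and synchronised in G1. Each was then irradiated with gamma rays from a caesium source, at doses of 3, 5 and 10 Gy, or left at 0 Gy. Each of the 8 combinations of line and dose had 2 libraries, given by the submitters as biological replicates, 16 in all. BLISS ligates adapters to free DNA ends inside fixed cells and counts each tagged molecule at its place on the genome. It measures no RNA, so neither the silencing of HMGB1 nor the identity of the cells could be checked with marker genes.

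The Hippo pathway is a kinase cascade that restrains growth. Merlin, the product of Nf2, acts at the membrane to bring the kinases LATS1 and LATS2 into action, and these phosphorylate the coactivators YAP (Yap1) and TAZ (Wwtr1), which are then kept out of the nucleus. Free YAP and TAZ bind TEAD factors such as TEAD1 and switch on growth genes. Human mesotheliomas often lose NF2, BAP1, a nuclear deubiquitinase, and CDKN2A, which encodes cell-cycle inhibitors, and less often SETD2, a histone methyltransferase. A locus deleted from every copy leaves no DNA to break, so it would hold almost no ends.

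The libraries held 131430 to 1010888 ends on the main chromosomes. The shHMGB1 libraries were the deeper, with a median of 853748 ends, against 505000 in shCTRL. A pair of libraries stood apart. The shHMGB1 library at 3 Gy, replicate 2, had 53.2% of its distinct positions inside annotated genes, against 56.5% to 61.7% in the remaining 7 shHMGB1 libraries. The shCTRL library at 3 Gy, replicate 2, which was also the shallowest of the 16, had 66.3%, against 58.6% to 64.8% in the remaining 7 shCTRL libraries. Where one of these libraries set the lowest or highest level of a line, the line's mean is also given without it.

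All 9 loci held ends at or above the level of their chromosome. The level of a locus is its number of distinct positions per kb divided by the median of windows of the same length on the same chromosome, so that 1 is a typical stretch, and a locus under 0.75 was called below its chromosome. The mean level over 16 libraries was 2.49 ± 0.51 (SD) for Tead1, 2.43 ± 0.51 for Bap1 and 2.38 ± 0.45 for Trp53. Setd2 had 1.82 ± 0.34, Lats2 1.64 ± 0.30 and Nf2 1.38 ± 0.18. Wwtr1 had 1.28 ± 0.17, Lats1 1.25 ± 0.28 and Yap1 1.18 ± 0.12. None of the 9 was under 0.75 in the mean or in any of the 16 libraries, and the lowest single value was 0.952, for Lats1 in shHMGB1 at 3 Gy, replicate 2. A locus that stands well above 1 could lose some of its copies and still lie above 0.75. The bound therefore cannot show the loss of only some copies. Between neighbours in this order, Trp53 and Setd2 differed by more than the spread of the difference (0.56 ± 0.35, Trp53 higher in 15 of 16 libraries), and the other 7 steps did not.

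**Figure D1:**
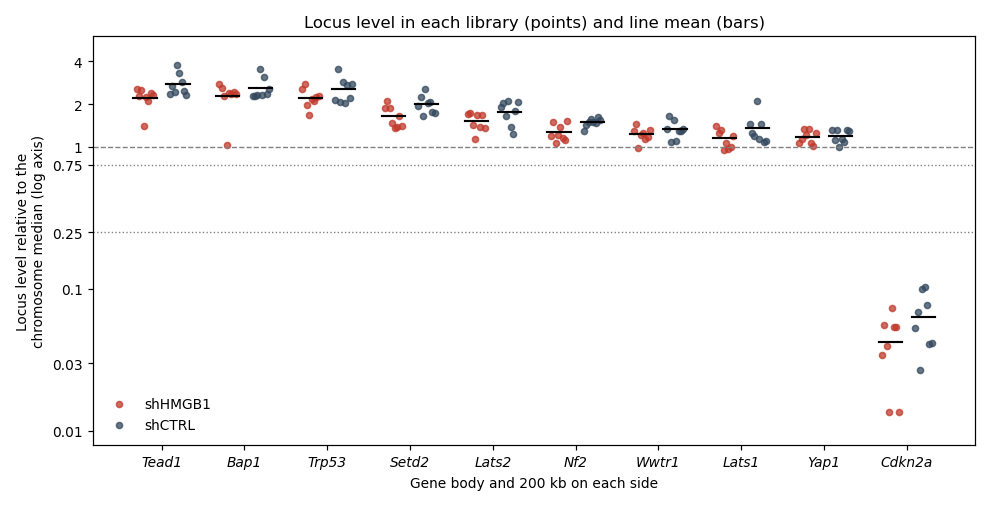
Level of each locus relative to its chromosome (log axis) in each library, shHMGB1 to the left of shCTRL, with bars for the mean of 8 libraries; the horizontal lines stand at 1, 0.75 and 0.25. All points of the 9 members lie above 0.75, whereas the Cdkn2a points lie between 0.014 and 0.103.

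Cdkn2a was the comparison locus. The 8 shHMGB1 libraries averaged 0.042 ± 0.021 (SD) and the 8 shCTRL libraries 0.064 ± 0.028. Its body, chr4:89274471-89294653 (mm10, as are all coordinates here), held 4 ends in shHMGB1 and 0 in shCTRL, where a count of 0 allows up to 3 from counting error alone. Its neighbours Cdkn2b, another cell-cycle inhibitor, and Mtap, an enzyme of methionine salvage, had levels of 0.056 and 0.061. Their loci overlap that of Cdkn2a, so these levels are not separate observations. Set against windows of 500 kb, 8.72% of 31317 genes lay under 0.75 and 1.32% under 0.25, so 0 of 9 members is near what the background gives. By the same measure the median was 1.67 over the members and 1.18 over all these genes.

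**Figure D2:**
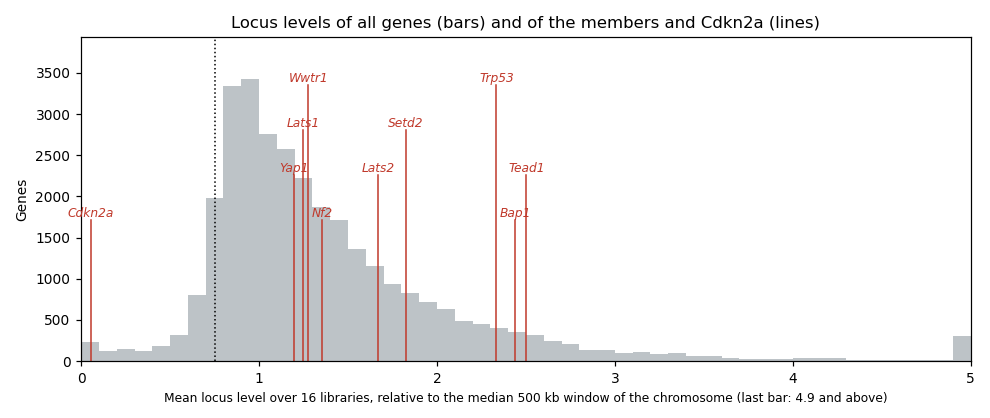
Number of genes (vertical axis) by mean locus level over 16 libraries relative to the median 500 kb window of the chromosome (horizontal axis), with marks at the 9 members and Cdkn2a. The members span 1.20 to 2.50, and Cdkn2a stands at 0.053 in the left tail.

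A change of copy number over a whole chromosome would cancel in the level, and the chromosomes differed. The median window of chromosome 14, which carries Bap1 and Lats2, held 0.752 ± 0.026 of the autosomal median, and that of chromosome 10, which carries Lats1, 0.856 ± 0.018 (SD, n = 16). Chromosome 11, with Nf2 and Trp53, stood highest of the member chromosomes at 1.18 ± 0.08. Chromosome 3, with Wwtr1, had 1.08 ± 0.04, chromosome 9, with Setd2 and Yap1, 1.03 ± 0.03, and chromosome 7, with Tead1, 0.998 ± 0.021. Measured against windows of all autosomes, Bap1 had 1.85, Lats2 1.25 and Lats1 1.08, so none fell under 0.75 on that scale either.

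The gene bodies alone were covered too. Each of the 9 bodies held at least 1 position in all 16 libraries. Summed over the libraries, the body level relative to windows of the body's length ran from 1.96 for Lats2 to 3.92 for Tead1. The short genes rest on few ends, 62 in Bap1 and 78 in Trp53, against 2170 in Tead1. Bodies were denser than their flanks in 9 of 9 members, with a median ratio of 1.56, compared with 64.7% of 11729 protein-coding genes and a median of 1.22.

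Among the suppressors, Bap1 (ENSMUSG00000021901, chr14:31251450-31259944, plus strand) lay in the locus with the largest share of bases in annotated genes of the 9, 90.8%. Its locus level had a lowest value of 1.04, a median of 2.38 and a highest of 2.76 in shHMGB1, against 2.26, 2.34 and 3.50 in shCTRL. The lines overlapped, and the lowest and the highest value came from the libraries that stood apart. Without them the shHMGB1 mean was 2.45 ± 0.16 and the shCTRL mean 2.45 ± 0.31 (n = 7 each), where all 8 libraries gave 2.27 ± 0.52 and 2.58 ± 0.47. The neighbour Nisch held 37.5% of the ends of the locus and Sh3bp5 23.0%. In the Bap1 body, exons made up 55.1% of the length and held 85.2% of the positions.

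Nf2 (ENSMUSG00000009073, chr11:4765845-4849536, minus strand) had locus levels of 1.07, 1.20 and 1.53 (lowest, median and highest) in shHMGB1 and 1.29, 1.50 and 1.62 in shCTRL. The lines overlapped, with the shHMGB1 median under the whole shCTRL range. Setd2 (ENSMUSG00000044791, chr9:110532597-110618633, plus strand) had 1.36, 1.56 and 2.09 in shHMGB1 and 1.65, 1.99 and 2.54 in shCTRL, again with overlap. The 2.54 was the shallow 3 Gy library, and without it the shCTRL mean of Setd2 was 1.92 ± 0.22 (n = 7), against 2.00 ± 0.30 with it. Exons held 3.37 times the positions per kb of introns in Nf2 and 4.22 times in Setd2. The neighbours with the most ends were Ap1b1 (13.8%) and Ascc2 (12.9%) at Nf2, and Scap (17.9%) and Ptpn23 (12.8%) at Setd2.

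Trp53 (ENSMUSG00000059552, chr11:69580359-69591873, plus strand), which encodes the p53 transcription factor, had locus levels of 1.68, 2.20 and 2.76 in shHMGB1 and 2.02, 2.46 and 3.50 in shCTRL. The lowest value was the shHMGB1 library at 3 Gy, replicate 2, and the highest the shCTRL library at 0 Gy, replicate 2. Without that 3 Gy library the shHMGB1 mean was 2.30 ± 0.27 (n = 7), against 2.22 ± 0.33 with it. Counting ends in place of positions put this locus at 3.91 ± 0.82 (SD, n = 16). Of its 5305 ends, 1794 (33.8%) lay in Eif4a1, a translation factor gene, and 79.0% of those in the 3 small nucleolar RNA genes inside it. Eif4a1 also held 823 of the 2541 distinct positions of the locus. A further 1378 ends (26.0%) fell on a pair of adjacent bases, chr11:69686325-69686326, where Tnfsf12, Tnfsf13os and Tnfsfm13 overlap, with 27 to 175 ends in each library. That pair lies 94452 bp past the end of Trp53. In the Trp53 body introns were the denser, with 8.03 positions per kb, against 3.96 in exons. Exons were the denser in the other 8 members, and in 78.7% of the 11729 genes.

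Of the kinases, Lats1 (ENSMUSG00000040021, chr10:7681214-7716460, plus strand) had locus levels of 0.952, 1.13 and 1.39 in shHMGB1 and 1.08, 1.22 and 2.10 in shCTRL. The 2.10 came from the shallow 3 Gy library, with 21 positions in the locus, and without it the shCTRL mean was 1.24 ± 0.15 (n = 7), against 1.35 ± 0.34 with it. The 0.952 came from the other library that stood apart, and without it the shHMGB1 mean was 1.17 ± 0.16 (n = 7), against 1.14 ± 0.17 with it. Lats1 was the only one of the 9 loci with 10 kb bins that were empty in all libraries, 6 of 43. No library had an end from chr10:7501850-7576925, a gap of 75.1 kb that ends 104 kb before the start of Lats1 and overlaps no annotated gene. The base sequence of this gap was not read, and whether ends can be placed there was not tested. Outside chromosome Y there were 198 gaps of 50 kb or more, 62 of them with no annotated gene and 3 on chromosome 10. In the other 8 loci the longest gap was 2793 to 6050 bp.

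The promoters of Lats1 and Bap1 are shown because they are alike in base composition and differed in how many ends they held. They are the 250 bases before the RefSeq start (GRCm38.p6, the mm10 assembly), both on the plus strand, 5′ to 3′, and capitals mark bases at which an end was counted in any library.
Lats1, chr10:7680959-7681208: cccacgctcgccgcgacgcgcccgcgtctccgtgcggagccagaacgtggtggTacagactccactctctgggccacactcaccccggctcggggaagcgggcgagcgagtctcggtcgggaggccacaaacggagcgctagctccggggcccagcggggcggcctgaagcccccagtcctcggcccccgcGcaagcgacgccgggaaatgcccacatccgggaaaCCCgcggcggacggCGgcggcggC
Bap1, chr14:31251239-31251488: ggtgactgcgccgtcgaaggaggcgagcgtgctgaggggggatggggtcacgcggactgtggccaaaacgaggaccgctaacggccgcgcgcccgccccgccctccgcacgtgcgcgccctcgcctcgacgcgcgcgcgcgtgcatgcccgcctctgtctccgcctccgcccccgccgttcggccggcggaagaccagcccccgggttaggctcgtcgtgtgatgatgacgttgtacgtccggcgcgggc
These stretches were 74.8% (Lats1) and 74.4% (Bap1) G or C, and 8 bases in Lats1 and 0 in Bap1 had ends. With the next 50 bases, the Lats1 promoter held 11 ends at 10 positions, 1 in shHMGB1 (10 Gy, replicate 1) and 10 in shCTRL, of which 5 were in 5 Gy, replicate 1. The Bap1 promoter held 0 ends, where a count of 0 allows up to 3. Of the other 6 members found in the RefSeq promoter table, Trp53 had 4 ends, Wwtr1 3, Nf2 2 and Yap1 1, and Lats2 and Setd2 had 0. The GC box GGGCGG, which SP1 binds, was at 1 place in the Lats1 promoter and at 3 in Bap1, reading both strands, and in 35.7% of 32851 promoters of this length. The letters GGAATG, the core that TEAD factors bind, were in a promoter of Lats2, Yap1 and Wwtr1 and in 14.7% of all. Counts this small were not tested.

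Lats2 (ENSMUSG00000021959, chr14:57689662-57758388, minus strand) had locus levels of 1.13, 1.55 and 1.73 in shHMGB1 and 1.24, 1.84 and 2.11 in shCTRL, which overlapped. The 1.13 and the 2.11 were the libraries that stood apart, and without them the means were 1.56 ± 0.17 in shHMGB1 and 1.72 ± 0.32 in shCTRL (n = 7 each), against 1.51 ± 0.22 and 1.77 ± 0.33 with them. Its densest position, chr14:57723780, held 21 ends in 12 libraries and lies also in the overlapping gene Gm49361. Gm49361 held 24.1% of the ends of the locus, so ends in the shared stretch cannot be given to one gene.

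Among the effectors, Yap1 (ENSMUSG00000053110, chr9:7931999-8004596, minus strand) had the smallest spread of the 9, with 1.02, 1.17 and 1.33 in shHMGB1 and 1.00, 1.21 and 1.32 in shCTRL. The 1.00 was the shallow 3 Gy library, without which the shCTRL mean of Yap1 was 1.22 ± 0.11 (n = 7), against 1.19 ± 0.13 with it. Wwtr1 (ENSMUSG00000027803, chr3:57455649-57575910, minus strand) had 0.975, 1.23 and 1.46 in shHMGB1 and 1.07, 1.31 and 1.65 in shCTRL. These loci had the lowest shares of bases in annotated genes of the 9, 48.6% for Yap1 and 47.8% for Wwtr1. Exons held 2.71 times the positions per kb of introns in Yap1 and 2.27 times in Wwtr1.

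Tead1 (ENSMUSG00000055320, chr7:112679318-112906807, plus strand), the DNA-binding partner of YAP and TAZ, had 1.41, 2.29 and 2.53 in shHMGB1 and 2.32, 2.57 and 3.75 in shCTRL. Both extremes were again the libraries that stood apart, and without them the means were 2.34 ± 0.16 in shHMGB1 and 2.63 ± 0.35 in shCTRL (n = 7 each). The ends followed the gene. Against windows of the locus length, the body stood at 3.87 ± 0.79, the flank before it at 2.63 ± 0.74 and the flank after it at 0.80 ± 0.30 (SD, n = 16). In the 10 kb bin that reaches the 3′ end of the gene the 8 shHMGB1 libraries had 74 positions and the 8 shCTRL libraries 47, and in the next bin 13 in shHMGB1 and 6 in shCTRL. The flank before the gene holds Parva, an actin-binding protein gene, with 24.1% of the ends of the locus.

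**Figure D3:**
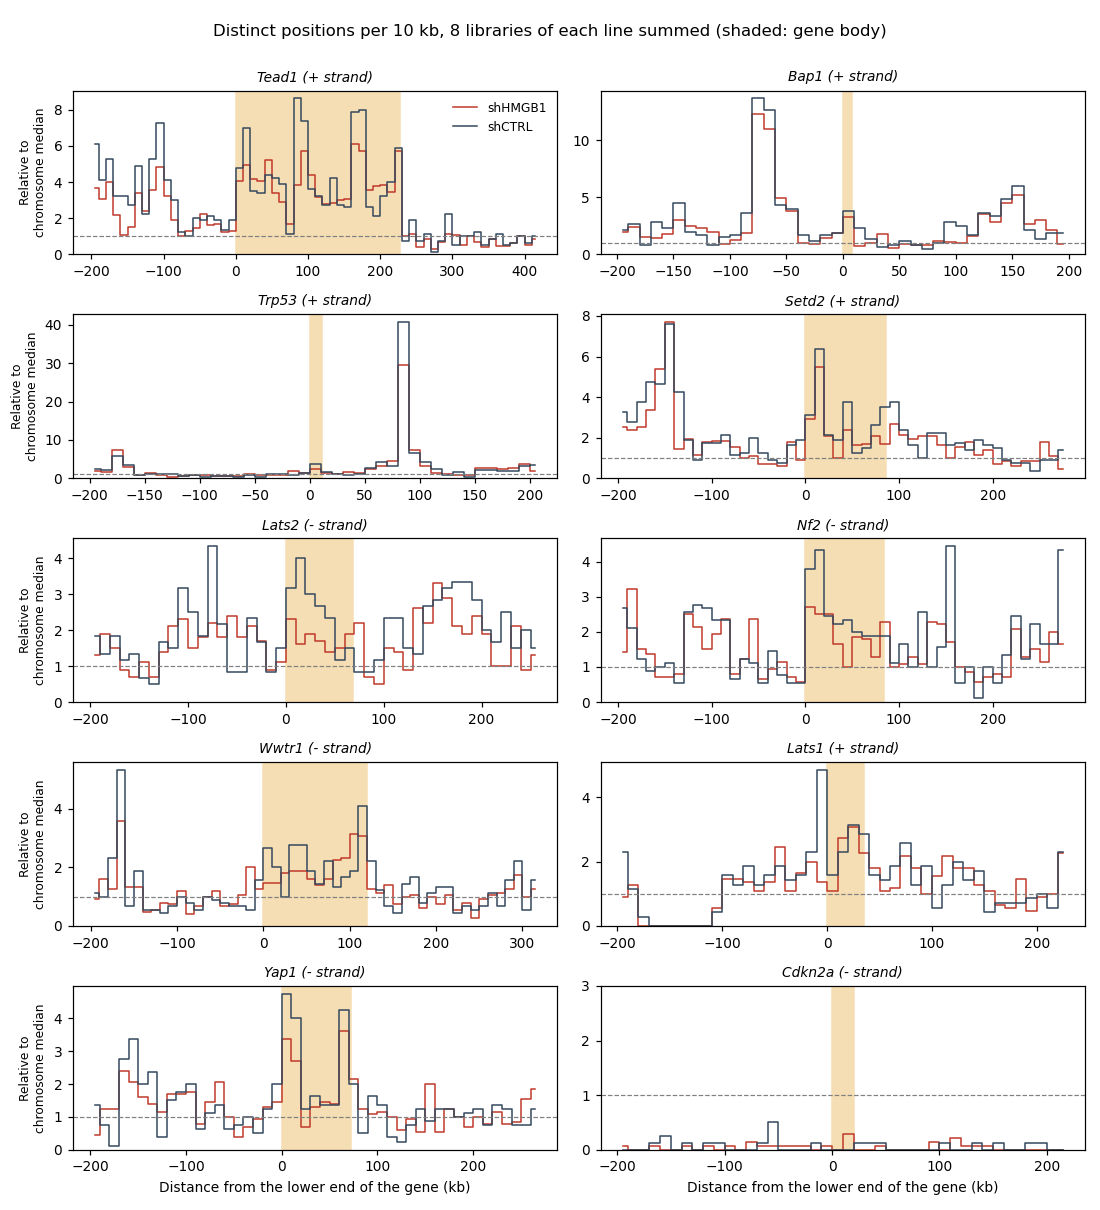
Distinct positions per 10 kb bin relative to the median bin of the chromosome (vertical axis, a scale for each panel) against the distance in kb from the lower coordinate of each gene, with the 8 libraries of each line summed and gene bodies shaded. The Lats1 panel shows the empty stretch, the Trp53 panel a bin at 29.6 in shHMGB1 and 40.7 in shCTRL, and the Cdkn2a panel stays at or under 0.286 in shHMGB1 and 0.50 in shCTRL.

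The first comparison asked whether ends in these loci differed between the shHMGB1 and shCTRL lines. There was a single line per hairpin and the shHMGB1 libraries were the deeper, so hairpin, line and depth cannot be told apart. In edgeR's quasi-likelihood test on distinct positions per locus, 0 of 9 members were called (adjusted p under 0.05), against a background of 0.351% of 31072 loci, and 0 of 9 had an unadjusted p under 0.05, against 16.9% of all loci. DESeq2 gave an adjusted p for 3 of the 9 and called 0 of those. The log2 differences, shHMGB1 minus shCTRL, ran from -0.19 ± 0.10 (SE) for Tead1, edgeR adjusted p = 0.351, to 0.08 ± 0.09 for Wwtr1, adjusted p = 0.672. They were negative for 7 of 9 members with a median of -0.09, and the median over all loci was 0.01. The 95% intervals lay between -0.40 and 0.27. Without the shHMGB1 library at 3 Gy, replicate 2, Tead1 had -0.11, Wwtr1 0.01 and Bap1 0.07, where all libraries gave -0.19, 0.08 and -0.02. Without shHMGB1 at 3 Gy, replicate 1, Tead1 had -0.28 and Wwtr1 0.15, and scaled to its own chromosome Wwtr1 had -0.01, so the sign of Wwtr1 flips with the scaling. Relative to the chromosome, the mean level was lower in shHMGB1 for 9 of 9 members. Set against windows of 500 kb, it was lower for 71.8% of the 31317 genes outside chromosome Y. Of the 15406 genes at or above the level of the lowest member, it was lower for 93.3%. The share of positions in genes was also lower in shHMGB1, at 53.2% to 61.7% against 58.6% to 66.3% in shCTRL, and its part in these levels was not tested.

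Counting ends per gene body also called 0 of the 8 members that passed the filter on low counts (Bap1 did not) in edgeR, against 0.218% of 12831 bodies, and 1 of the 8 had an unadjusted p under 0.05, near the 9.68% of all bodies that did. DESeq2 gave an adjusted p for 1 of the 8 and did not call it. On simulated data the edgeR body test recovered 1.09% of bodies with a true log2 difference of 0.5 and 37.9% with 1. Most body differences of these sizes thus went uncalled in the simulation. It gave all bodies a common spread and pooled bodies of all depths, so these shares are not those of each member. The body under 0.05 in edgeR was that of Lats2. CPM here are counts per 1e6 ends, with library totals scaled by edgeR's TMM. In shHMGB1 the Lats2 body had 21.2 and 25.3 CPM at 0 Gy, 26.9 and 26.2 at 3 Gy, 16.7 and 18.2 at 5 Gy, and 27.4 and 26.0 at 10 Gy. In shCTRL it had 39.1 and 28.0 CPM at 0 Gy, 34.0 and 32.8 at 3 Gy, 30.7 and 41.7 at 5 Gy, and 32.5 and 28.7 at 10 Gy. All 8 shHMGB1 values lay below all 8 shCTRL values, as in 10 of the 12831 bodies (0.0779%). Counted as distinct positions, relative to windows of the locus length, the lines overlapped in this body. The highest shHMGB1 value was 2.02 (10 Gy, replicate 1) and the lowest shCTRL value 1.57 (0 Gy, replicate 2). Part of the Lats2 body ends lies in the stretch shared with Gm49361. The log2 difference was -0.53 ± 0.23, with an edgeR unadjusted p of 0.0229 and adjusted p of 0.423. Nf2 averaged 44.1 ± 7.5 CPM in shHMGB1 and 53.1 ± 8.9 CPM in shCTRL (SD, n = 8 each), a log2 difference of -0.30 ± 0.18. Tead1, with the most ends, averaged 193 ± 24 CPM in shHMGB1 and 197 ± 43 CPM in shCTRL. For Trp53 the 95% interval of the log2 difference ran from -1.53 to 0.59, which takes in 0.

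The second comparison set the irradiated libraries against 0 Gy (12 and 4 libraries). By locus 0 of 9 members were called, and 0% of the 31072 loci were called by edgeR and 0 by DESeq2. In edgeR 1 of 9 members had an unadjusted p under 0.05, beside 4298 of all loci (13.8%). The member with the unadjusted call was Trp53, whose level was 2.26 ± 0.35 in irradiated libraries and 2.74 ± 0.57 at 0 Gy (SD). Its log2 difference in positions was -0.25 ± 0.12, with an edgeR unadjusted p of 0.0330 and adjusted p of 0.326. At 0, 3, 5 and 10 Gy its level averaged 2.66, 1.83, 2.15 and 2.25 in shHMGB1, and 2.81, 2.46, 2.37 and 2.48 in shCTRL. The 0 Gy libraries themselves ranged widely, with 2.57 and 2.76 in shHMGB1 and 2.12 and 3.50 in shCTRL. Setd2 had -0.19 ± 0.11 (edgeR adjusted p = 0.436), with mean levels of 1.98, 1.66, 1.37 and 1.53 over the doses in shHMGB1, and 2.09, 2.09, 2.06 and 1.74 in shCTRL. Yap1 had the highest value, 0.13 ± 0.12. In the bodies edgeR and DESeq2 called 0 of 8 members, against 0.0234% of 12831 bodies in edgeR. In edgeR 0 of the 8 had an unadjusted p under 0.05, beside 7.19% of all bodies. Log2 differences ran from -0.28 ± 0.38 for Lats1 to 0.27 ± 0.17 for Tead1. Tead1 bodies averaged 204 ± 33 CPM in irradiated libraries and 169 ± 18 CPM at 0 Gy.

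**Figure D4:**
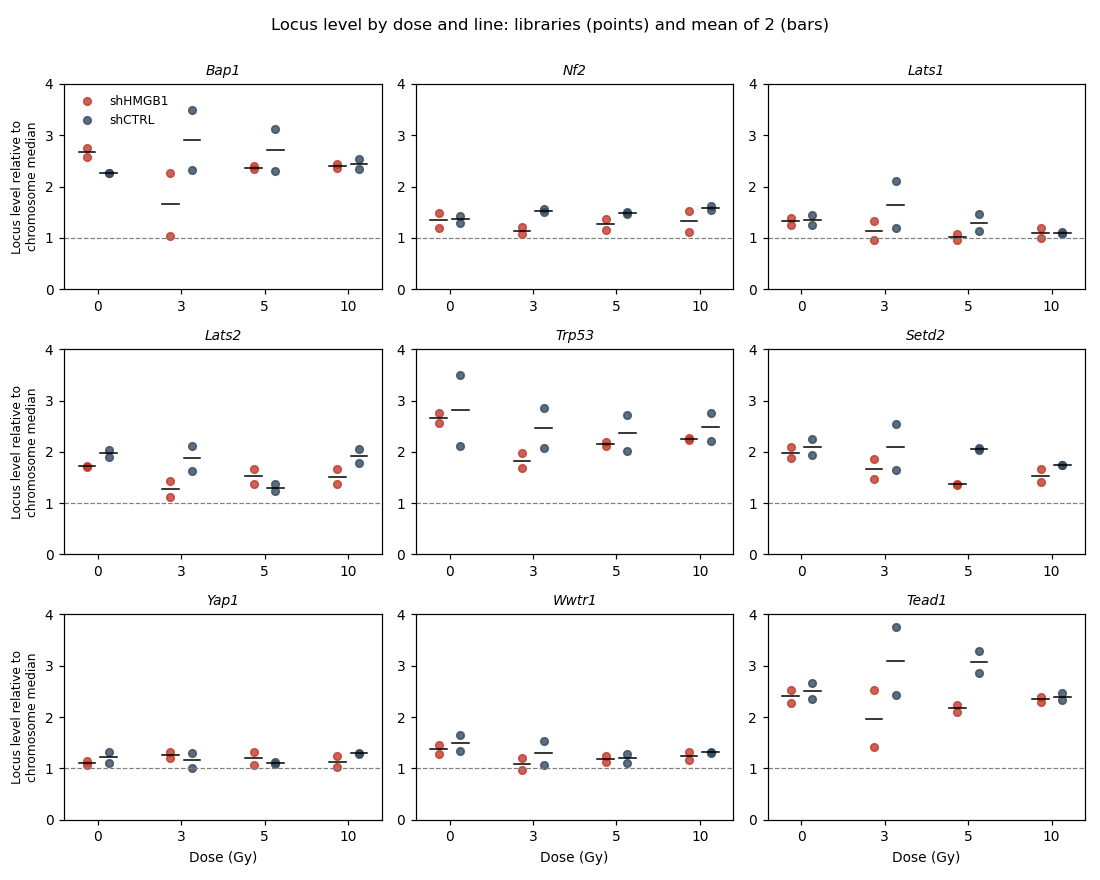
Locus level relative to the chromosome (vertical axis) by dose in Gy for each member, with the 2 libraries of each line and dose as points, shHMGB1 to the left of shCTRL, and their mean as a bar. At 3 Gy the Bap1 libraries stand at 2.27 and 1.04 in shHMGB1 and at 2.33 and 3.50 in shCTRL.

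At 10 Gy against 0 Gy (4 libraries each), edgeR and DESeq2 called 0 of 9 loci and 0 of 8 bodies. Over all features, edgeR called 0% of loci and 0.0156% of bodies, and DESeq2 called 0 loci. In edgeR 1 member locus and 0 member bodies had an unadjusted p under 0.05, beside 2361 of all loci (7.6%) and 5.23% of all bodies. The locus was Setd2, with a log2 difference of -0.26 ± 0.12, an edgeR unadjusted p of 0.0445 and adjusted p of 0.645. Whether the lines differed in the response to irradiation was tested as an interaction. Both tools called 0 of 9 loci and 0 of 8 bodies, against 0% of loci and 0% of bodies in edgeR and 0 in DESeq2. In edgeR 0 members had an unadjusted p under 0.05, beside 1310 of all loci (4.22%) and 672 of all bodies (5.24%). By locus the widest value was Bap1, -0.36 ± 0.24, which was -0.24 without the shHMGB1 library at 3 Gy, replicate 2, and -0.53 without replicate 1 (edgeR unadjusted p of 0.0169, adjusted p of 0.633).

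**Figure D5:**
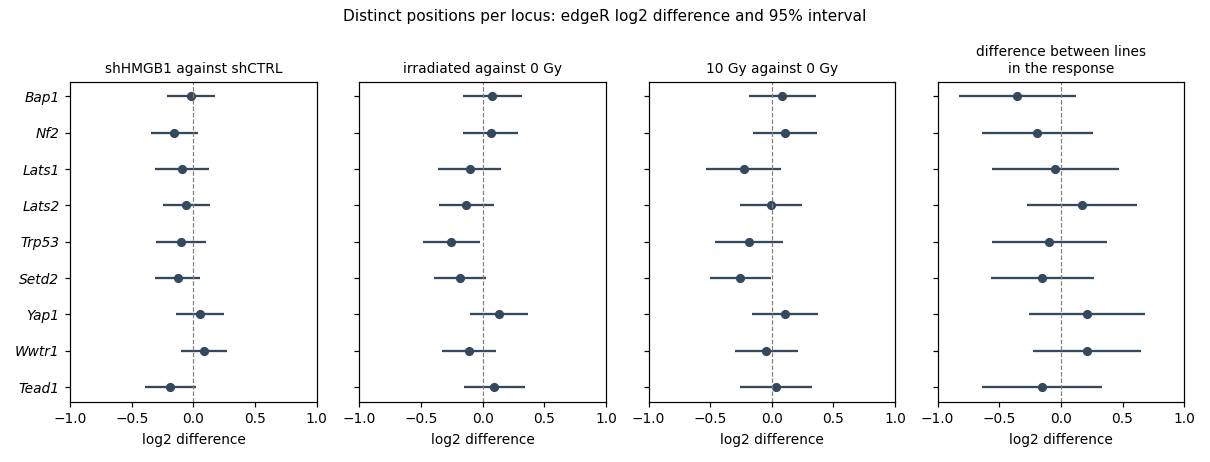
edgeR log2 differences in distinct positions per locus (points) with 95% intervals (lines) for the 9 members in the 4 comparisons. The intervals of Trp53 for irradiation (-0.49 to -0.02) and of Setd2 for 10 Gy (-0.50 to -0.01) lie below 0 before adjustment, and no adjusted p is under 0.05.

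The wider pathway was read from 51 further genes in 6 lists. None of the 22 Hippo kinases and scaffolds lay under 0.75, with levels from 0.964 to 3.17. The same held for 5 TEAD and VGLL factors (0.901 to 4.07), 8 YAP and TEAD targets (1.04 to 2.50), 6 partners of BAP1 (1.30 to 2.36) and both p53 regulators (1.12 and 1.13). A level above 0.75 can still hide an empty stretch. At Dchs1, in the list of kinases and scaffolds, the level was 1.22, but 9 of 43 bins of 10 kb were empty in all libraries. Its longest gap, 61627 bp, reached the edge of the locus. By body, Tead2, a relative of Tead1, stood at 0.658 on 25 positions, under 0.75, while its locus stood at 4.07. Of 8 other genes mutated in mesothelioma, 3 lay under 0.75, the neighbours Cdkn2a, Cdkn2b and Mtap. The loci of these 3 overlap and share the same longest gap, so they stand for 1 region. Between the lines edgeR called 0 of 48 tested loci and 0 of 45 tested bodies, with 10 loci and 6 bodies at an unadjusted p under 0.05, beside 16.9% of all loci and 9.68% of all bodies. The median log2 difference was -0.09 by locus and -0.15 by body, beside 0.01 and 0.03 over all features tested. The nearest to the threshold, singled out after their values were seen, were Vgll3, a TEAD cofactor, Map4k4, a kinase upstream of LATS, and Axl, a receptor kinase and YAP target. Vgll3 had 0.48 ± 0.12 by locus (edgeR adjusted p = 0.0576), Map4k4 -0.35 ± 0.09 by locus (0.0691) and Axl -0.55 ± 0.15 by body (0.0887). After irradiation edgeR called 0 of 48 loci and 0 of 45 bodies, with 6 and 4 at an unadjusted p under 0.05, beside 13.8% of all loci and 7.19% of all bodies.

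The gene whose ends per body varied most like those of a member over the 16 libraries was found by Pearson's r of log2 CPM among 3640 to 3644 candidates. It was Myo1e for Tead1 (r = 0.89), Phykpl for Lats2 (0.85), Arhgap29 for Wwtr1 (0.84), Efemp1 for Trp53 (0.83), Sema7a for Setd2 (0.80), Ppp3ca for Yap1 (0.76), Ash1l for Nf2 (0.74) and Elf4 for Lats1 (0.71). Each is the highest r among its candidates, from libraries that share depth and preparation, and is given as a description.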

How the data were processed

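Per the submitters' processing notes, which give no order or settings, the authors used bedtools, UMI-tools, SAMtools, Trimmomatic 0.32 and the aligner BWA 0.7.5-r404 on mm10. The deposited files hold raw counts of ends per cluster with the position of each end, unnormalised and without strand, and molecules were counted once by their molecular identifier, per the file names. Ends were placed at their own position (1-based) and those on the main chromosomes used, 11380784 in all. A distinct position counts once per library. Genes came from GENCODE M21, taking the longest entry per name, and ends in overlapping genes counted for each. Windows with no end in any library were left out of chromosome medians. Body levels use counts summed over libraries, since the median window of a short gene is 0 in some libraries, which departs from the planned mean over libraries.

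edgeR 4.0.16 (glmQLFit, TMM, filterByExpr, R 4.3.3) was fitted to all loci and to all bodies with 8 group means, and p-values were adjusted by Benjamini-Hochberg over all features. DESeq2 1.42.0, other scalings, no filter, libraries thinned to 131430 ends, other flanks and windows, replicate blocks and leaving out each library were tried. On simulated data the edgeR test between the lines recovered 76% of loci with a true log2 difference of 0.5 and 99% with 1. For bodies it recovered 1.09% and 37.9%. False calls among unchanged features were 13 for loci and 1 for bodies. The simulation gave all features of a kind a common spread and drew the libraries independently, unlike the libraries that stood apart here. The 9 members and the lists were chosen with earlier results of these data known. Named genes are the 9 members, list genes called or under 0.75, Cdkn2a, the 2 neighbours with the most ends per locus, the densest positions and the most alike gene. Dchs1, Vgll3, Map4k4, Axl and the genes around single positions were named after their values were seen. Limits for a count of 0 cover counting error only, and edgeR intervals include the spread between libraries. The RNA and ATAC assays of the study were not used here.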

Additional observations from a re-analysis of the deposited data

Results flagged for a closer look

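In 3 of 34 groups of 8 libraries, 1 library lay far from the other 7 by Dixon's test at the 95% level, which chance flags in about 1 of 20 groups. The Bap1 locus level in shHMGB1 was 1.04 at 3 Gy, replicate 2, with the nearest other library at 2.27. The Tead1 locus level in the same library was 1.41, with the nearest at 2.10. The Lats1 locus level in shCTRL was 2.10 at 3 Gy, replicate 2, with the nearest at 1.46. The shHMGB1 library had the lowest level of 5 of the 9 members and the lowest share of positions in genes, 53.2%, and the shCTRL library had the highest level of 5 of the 9 and the highest share, 66.3%. The part of the genic share in these values was not tested.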

How the results depend on the processing

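The number of members under 0.75 was 0 in all 23 alternatives for loci and all 22 for bodies. For loci, leaving out a library could not change this count, since no member lay under 0.75 in any library. The body set against windows of the locus length was added after seeing the data. The lowest level in any of them was 0.921 (Yap1, flank of 500 kb), and against windows with a like share in genes the loci had 1.07 to 2.08. The number of members called was 0 in each of the 25 to 27 alternatives of each comparison, leaving out each library included, though DESeq2 between the lines gave an adjusted p for only 3 of 9 loci and 1 of 8 bodies. The closest were Tead1 by locus between the lines, adjusted p = 0.0569 without shHMGB1 3 Gy replicate 1, and Trp53 by locus after irradiation, 0.145 without shCTRL 0 Gy replicate 1. Of 1733 uncalled log2 differences under alternatives, 130 had the other sign.

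Counts over all genes, used here as background, moved more. By locus between the lines, 109 were called, but 30 with ends, 421 of 5168 with DESeq2, 304 with no filter, 22 when thinned, and 17 (without shHMGB1 5 Gy replicate 2) to 2130 (without shHMGB1 3 Gy replicate 1, with 1618 without shCTRL 3 Gy replicate 1) when a library was left out, where the lone library of a group is assumed to vary like the other groups. By body, 28 (7 higher, 21 lower) were called, but 66 with distinct positions, 22 (3 and 19) with library totals, 17 (2 and 15) with the own chromosome as offset, 5 when thinned and 13 to 141 with a library left out. For irradiation, leaving out a library gave 0 to 254 loci and 1 to 20 bodies, in place of 0 and 3, the highest again without shHMGB1 3 Gy replicate 1. No filter gave 1 locus, and DESeq2 and thinning gave 0 bodies and the own chromosome 1. At 10 Gy, 2 bodies were called, but 1 with distinct positions, 0 when thinned and 4 with 0 and 10 Gy libraries only. The cause was not tested.

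By locus, differences between replicates 1 and 2 correlated across doses at 0.15 to 0.19 within shCTRL. Each of its 6 pairs of groups was above 0.1. The range was 0.06 to 0.18 within shHMGB1 and -0.29 to 0.06 between lines. By body it was 0.08 to 0.20 within shCTRL, 0.08 to 0.17 within shHMGB1 and -0.21 to 0.10 between lines. Replicate numbers thus moved together weakly within each line, less evenly within shHMGB1 by locus, and did not pair the lines. With the replicate block 0 members were called in every comparison, while 206 loci and 37 bodies were called between the lines. With the block within each line these were 1572 and 136, 135 loci and 19 bodies after irradiation, and 13 bodies at 10 Gy, again with 0 members. Depth limits the short genes, since Bap1 and Trp53 bodies held 62 and 78 ends in all.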

Other observations

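Of the 326 bins of 10 kb in the member loci with at least 20 positions, the bin just before the start of Lats1, chr10:7671214-7681213, had the lowest ratio of shHMGB1 to shCTRL positions. It held 15 positions in shHMGB1 and 34 in shCTRL, a ratio of 0.441, where the median ratio over the bins was 1.41 with the shHMGB1 libraries the deeper. At the other end, a bin centred 15 kb below the lower coordinate of Wwtr1 held 30 positions in shHMGB1 and 5 in shCTRL, a ratio of 6, which lies farther from the median as a fold. In the Lats1 bin, in ends per 1e6 ends of the library, the shHMGB1 libraries had a lowest value of 0, a median of 1.69 and a highest of 9.68, and the shCTRL libraries 2.33, 11.6 and 16.6, so the lines overlapped. That bin takes in the Lats1 promoter and the start of the neighbouring Pcmt1. Both bins were picked as the extremes after the values were seen, and neither was tested.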
